A study of Mus musculus with 6 samples.

Results

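The genes described here encode channels, exchangers and pumps that move ions across the membrane of sperm. They are the sperm sodium/proton exchanger Slc9c1 (named Slc9a10 on the array), the CatSper pore subunits Catsper1, Catsper2, Catsper3 and Catsper4, the potassium channel Kcnu1, the proton channel Hvcn1, the anion transporter Slc26a8 and the pumps Atp1a4 and Atp2b4. The genes were chosen by name, and their probe sets were those annotated with one of these symbols, or its synonym, and no other. Of the 10 genes, 9 were found among 16358 named genes, with 166 of the 209279 probe sets that carried 1 gene symbol. Atp1a4 is not analysed here.

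RNA of whole testes was hybridised to 6 Affymetrix mouse exon arrays, which carry several short probe sets for each gene. Wild-type testes came from mice 21 days old (Wt P21, n = 3), and mutant testes came from adult Dazap1 mutants (Fn adult, n = 3), where adult means 2 to 6 months old. All mice had the mixed C57BL/6 and 129 background. DAZAP1 is an RNA-binding protein of many tissues, and the study describes the mutants as homozygous for the Fn allele, which makes an altered DAZAP1 protein. The allele is not limited to germ cells: most homozygotes die around birth, and the few that reach adulthood are small, with germ cells that stop before the first meiotic division. Genotype and age change together between the groups and cannot be told apart in any difference given here. The level of Dazap1 is not analysed here and was not used to check the labels. The samples of a group are named biological replicates from separate RNA preparations, and p values measure the spread between them.

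A mammalian sperm must raise the pH and the calcium inside its tail before it can swim with the vigorous strokes needed to reach and enter an egg. CatSper is the calcium channel of the sperm tail. Its pore is built from the products of Catsper1 to Catsper4, all of which are required for male fertility in the mouse, and it opens when the cytoplasm becomes alkaline. Slc9c1 exchanges sodium for protons and Hvcn1 lets protons out of human sperm. Kcnu1 encodes SLO3, the potassium channel that makes the sperm membrane potential more negative. Slc26a8 carries anions in germ cells, Atp1a4 encodes the sodium pump subunit particular to sperm, and Atp2b4 encodes a calcium pump of the plasma membrane. Transcripts of most of these genes accumulate in late meiotic and haploid germ cells, while Hvcn1 and Atp2b4 are used by other cell types as well, Hvcn1 above all by B cells and phagocytes.

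The gene level is the median, over the probe sets of a gene, of the log2 values on 1 array, and differences are Fn adult minus Wt P21. A gene rose or fell where limma gave an adjusted p under 0.05 over the 15207 genes with at least 3 probe sets. Of all these genes, 8.07% rose and 0.914% fell, and the median of all differences was 0.07 in log2 units. Array medians were 8.90, 8.76 and 9.05 on Wt P21 replicates 1, 2 and 3 and 9.10, 9.07 and 9.05 on the Fn adult arrays. In array median, Wt P21 replicate 3 was thus close to the Fn adult arrays, and Wt P21 replicates 1 and 2 lay lower. Values were used as deposited, so this offset is part of every difference. Wt P21 replicate 3 stood apart from the other wild-type arrays: its level lay above the mean of Wt P21 replicates 1 and 2 by a median of 0.14 over all genes, by 0.51 over 10 pachytene spermatocyte markers, by 0.78 over 10 haploid spermatid markers and by 1.32 over the 9 genes described here. It was the highest of the 3 wild-type arrays for 8 of the 9 genes (all except Hvcn1), against 52.9% of all genes. The differences of the 9 genes and the counts of the gene lists are therefore also given without it. Wt P21 replicate 3 was singled out partly from the values of these same genes. Leaving out the highest wild-type array raises the difference of a gene by construction, so a rise seen only without it carries no separate weight.

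The testis markers bear on how the arrays compare in their cells. Over all genes 8.07% rose and 0.914% fell, and the counts with all arrays stand against these shares. Of the 10 pachytene markers, 2 fell (Piwil1 and Ybx2) and 8 did not pass. The median of their differences was -0.47, or -0.17 without Wt P21 replicate 3. Their mean log2 level was 11.42 to 12.10 on the Wt P21 arrays and 11.08 to 11.42 on the Fn adult arrays. None of the 10 measured haploid spermatid markers passed in limma, with 2 higher and 1 lower at an unadjusted p under 0.05, and their median difference was 0.43. That median was 0.95 and 6 rose without Wt P21 replicate 3, where 16.1% of all genes rose. Their mean level was 7.96, 8.00 and 8.99 on Wt P21 replicates 1, 2 and 3 and 8.46 to 8.88 on the Fn adult arrays. The largest difference was 1.09, for Prm1 (adjusted p = 0.0917), with 9.01, 8.81 and 10.27 on the Fn adult arrays. The lowest was -0.89, for Acr (adjusted p = 0.0686), where the groups did not overlap. Prm2, Tnp1 and Tnp2 differed by -0.10, 0.18 and -0.16 (adjusted p = 0.74, 0.605 and 0.546). The levels of Tnp1, 5.91 to 6.65, lay under the lower quartile of every array. All 6 measured Leydig cell markers rose (Star, Cyp11a1, Cyp17a1, Hsd3b1, Hsd17b3 and Ptgds), as did 6 of 8 macrophage markers (Adgre1, Csf1r, Cd68, Lyz2, Mrc1 and Ptprc). Of 7 Sertoli markers 3 rose (Clu, Gata4 and Trf) and 1 fell (Amh), of 7 spermatogonial markers 2 rose (Kit and Etv5), of 7 lymphocyte markers 1 rose (Cd4) and of 3 red blood cell markers 1 rose (Alas2). With 8.07% of all genes risen, a single call in so short a list is not read as a change of those cells. No endothelial or peritubular myoid marker passed in limma. The largest differences among them were those of Tek, 0.42, and Des, 0.40, and 2 of 6 and 1 of 5 had an unadjusted p under 0.05. Without Wt P21 replicate 3 the pachytene, Sertoli, Leydig, macrophage, spermatogonial and lymphocyte counts were as above, while Tek rose and Cnn1 and Epb42, markers of myoid and red blood cells, fell (adjusted p = 0.0472, 0.0191 and 0.0424). Of all genes 16.1% rose and 2.41% fell there. The rises of Gata4, Etv5 and Cd4 ended after quantile normalization (adjusted p = 0.0982, 0.162 and 0.0584) and after median centring of the arrays (0.118, 0.16 and 0.083). Median centring also ended those of Clu and Hsd3b1 (0.103 and 0.0566). Acr, Fcgr3 and Slc4a1 fell after quantile normalization (adjusted p = 0.0405, 0.0446 and 0.0427) and after median centring (0.0289, 0.0308 and 0.0303). Of all genes, 2.97% fell after quantile normalization and 4.14% after median centring. Ldhc fell after median centring (0.0369). The levels of Ptprc, Epb42 and Slc4a1 lay under the lower quartile on all 6 arrays and those of Cd4 on 4, where the background is not known.

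Among the 9 measured channels and transporters, 1 gene fell (Slc9c1), 1 rose (Hvcn1) and 7 did not pass. Over all genes 8.98% were called, 0.914% as falls and 8.07% as rises. The median difference of the 9 genes was 0.03 on the log2 scale, close to the 0.07 of all genes, with 4 lower and 5 higher values. In all genes, 41.3% had a lower mean in Fn adult testes. The Fn adult levels lay below every Wt P21 level for 2 genes (Slc9c1 and Slc26a8, where 8.96% of all genes did so) and above every one for 1 gene (Hvcn1, where 25.6% of all genes did so), and the groups overlapped for 6. Without Wt P21 replicate 3, Slc9c1 still fell and 4 genes rose (Hvcn1, Atp2b4, Catsper3 and Kcnu1), against backgrounds of 2.41% fallen and 16.1% risen. Atp2b4, Catsper3 and Kcnu1 were called in that setting only, which raises their differences by construction. Of the 166 probe sets 21 were called with all 6 arrays: 19 of Slc9c1 fell and 2 of Hvcn1 rose. Of all probe sets 4.18% were called, with 0.402% fallen and 3.78% risen. Without Wt P21 replicate 3, 54 of the 166 were called, where 1.03% of all probe sets fell and 8.12% rose. There 26 of Slc9c1 and 1 of Catsper2 fell, and 14 of Kcnu1, 5 of Atp2b4, 4 of Catsper3, 2 of Catsper4 and 2 of Hvcn1 rose.

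**Figure D1:**
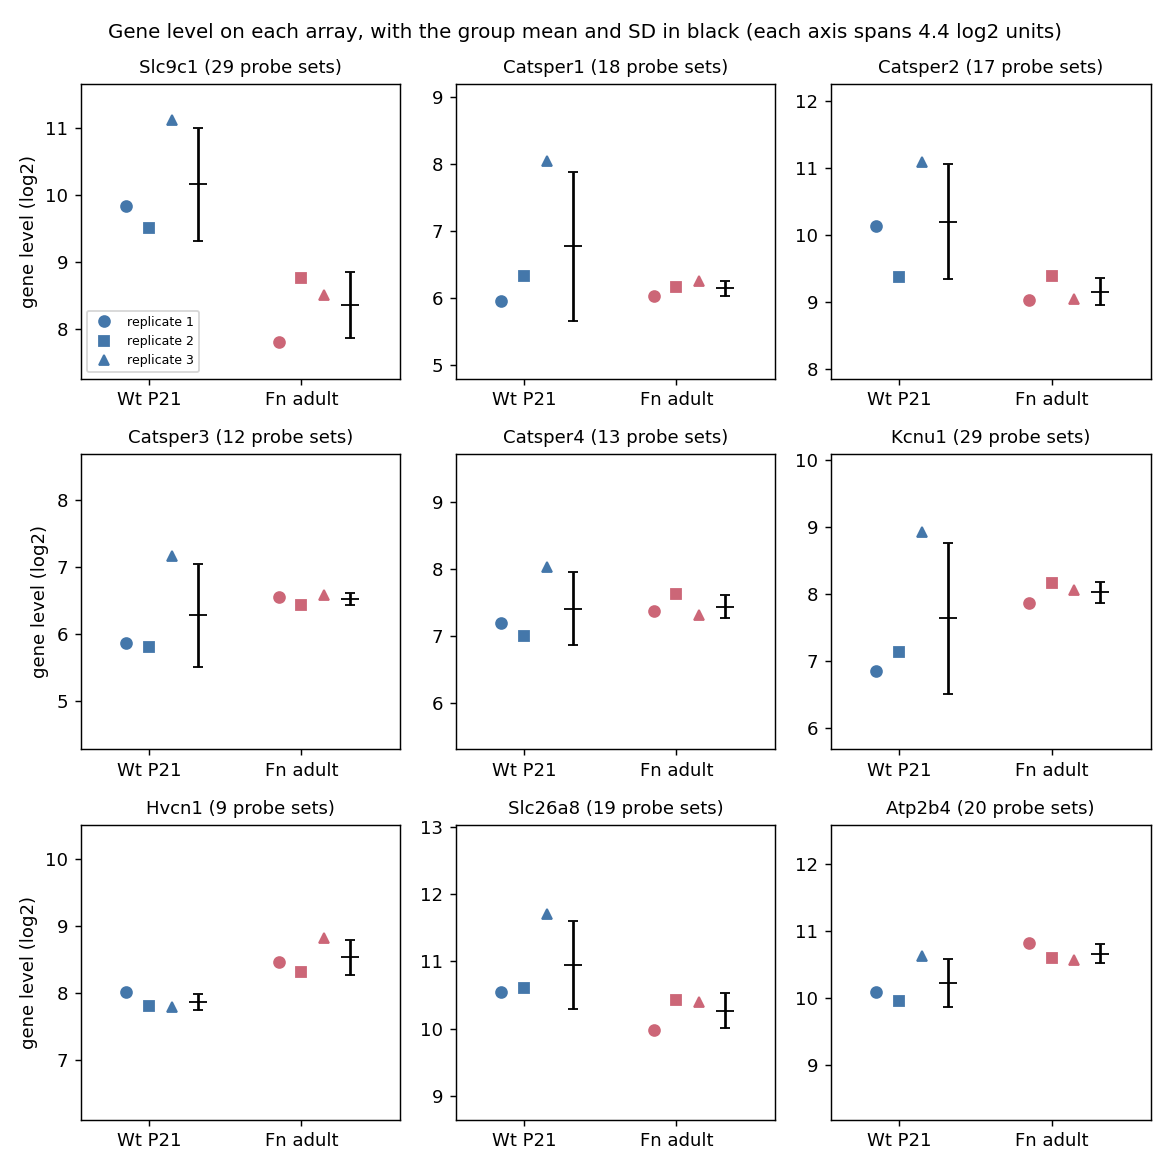
Gene level (log2, vertical axis) on each of the 3 Wt P21 arrays (blue) and 3 Fn adult arrays (red), with 1 panel per gene, a marker shape per replicate number and the group mean ± SD in black. Wt P21 replicate 3 is the highest wild-type point in every panel except that of Hvcn1, and the Slc9c1 groups are separate, with 9.51 to 11.11 against 7.80 to 8.75.

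Slc9c1 encodes an exchanger that swaps sodium for protons in the sperm tail and binds soluble adenylyl cyclase, and mice that lack it have sperm that do not swim forward. Its level was 9.84, 9.51 and 11.11 on Wt P21 replicates 1, 2 and 3 and 7.80, 8.75 and 8.50 on Fn adult replicates 1, 2 and 3. Every Fn adult level lay below every Wt P21 level, and the groups were nearest at Wt P21 replicate 2 and Fn adult replicate 2. The mean went from 10.16 ± 0.85 (SD, n = 3) to 8.35 ± 0.49 (SD, n = 3), a difference of -1.80 on the log2 scale (SE 0.40, 95% interval -2.72 to -0.88), or 3.49-fold lower, with an adjusted p of 0.0303. No background was subtracted before any fold was taken. In RNA from whole testes, fewer cells of a type and less RNA per cell cannot be told apart. Without Wt P21 replicate 3 the difference was -1.32 (adjusted p = 0.0121). The call ended without Wt P21 replicate 1 (adjusted p = 0.0578) and when Fn adult replicate 1, 2 or 3 was left out (adjusted p = 0.138, 0.0646 or 0.0917).

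The start sites are shown for 3 genes, Slc9c1, Catsper2 and Slc26a8, in which every probe set had a lower mean in Fn adult testes. The 250 bases before each start are shown from RefSeq (GRCm38.p6), 5′ to 3′ on the strand of the gene, at chr16:45535016-45535265 (plus strand) for Slc9c1, chr2:121413793-121414042 (minus strand) for Catsper2 and chr17:28689988-28690237 (minus strand) for Slc26a8. Capitals mark a CCAAT box (CCAAT, or ATTGG on the other strand) and the first 5 letters of the cyclic AMP response element (TGACG, or CGTCA on the other strand).
Slc9c1: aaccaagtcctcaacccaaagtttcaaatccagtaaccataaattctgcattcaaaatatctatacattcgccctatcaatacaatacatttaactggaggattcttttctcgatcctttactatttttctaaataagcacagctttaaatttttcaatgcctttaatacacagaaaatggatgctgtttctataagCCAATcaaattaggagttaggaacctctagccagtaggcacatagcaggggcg
Catsper2: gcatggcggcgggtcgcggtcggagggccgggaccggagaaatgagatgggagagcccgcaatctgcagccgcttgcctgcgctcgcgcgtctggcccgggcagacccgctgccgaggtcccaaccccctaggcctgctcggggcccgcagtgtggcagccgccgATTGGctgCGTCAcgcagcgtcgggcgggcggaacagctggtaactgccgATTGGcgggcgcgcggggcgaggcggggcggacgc
Slc26a8: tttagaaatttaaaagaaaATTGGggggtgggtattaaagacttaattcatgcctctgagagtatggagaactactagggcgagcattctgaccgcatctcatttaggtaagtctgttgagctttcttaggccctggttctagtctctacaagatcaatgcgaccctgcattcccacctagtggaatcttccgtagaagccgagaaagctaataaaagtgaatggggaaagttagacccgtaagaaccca
The CCAAT letters occurred in 33.8% of the 32851 RefSeq windows of this length and in these 3 genes, with the first base 53 bases before the start of Slc9c1, 85 and 35 bases before that of Catsper2 and 231 bases before that of Slc26a8. They were not in the windows of Catsper3, Catsper4, Atp1a4 or Atp2b4, and the other genes had no window in the table. TGACG occurred in 17.8% of windows and, among the 7 genes with a window, in that of Catsper2, where it starts 77 bases before the gene and does not overlap the CCAAT letters. The whole element TGACGTCA (1.55% of windows) and GTTGCC, part of the X-box that RFX factors bind (10.4% of windows), were searched on both strands and were in none of the 7. A match of letters is a description of the sequence and not a site of binding. The 3 genes shown were picked for their lower values, and a link between these letters and the differences was not tested.

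The fall of Slc9c1 ran through the whole of its probe sets. All 29 had a lower mean in Fn adult testes, and in all 29 the groups did not overlap, where 40.6% and 7.67% of all probe sets did so. Of the 29, 19 fell on their own and 10 did not pass, where 4.18% of all probe sets were called and 0.402% fell. The 29 probe sets share 1 transcript pool and the same arrays, so they are not independent measurements. Their differences ran from -2.99 to -1.31 on the log2 scale, with a median of -1.93. The largest was that of probe set 5292107, whose levels were 4.90, 5.57 and 7.78 on the Wt P21 arrays and 2.72, 3.10 and 3.46 on the Fn adult arrays. All but that of Wt P21 replicate 3 were below the lower quartile of their array, which makes the size of this fall uncertain. The smallest was that of probe set 4884325, with 9.60, 9.47 and 10.97 against 8.42, 9.15 and 8.54, which did not pass (adjusted p = 0.107). Of the 29, 16 had a mean above that of the median probe set (8.99), and their median difference was -1.80, while that of the 13 dimmer ones was -2.22.

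Hvcn1, the proton channel, ran the other way. Its level was 8.00, 7.80 and 7.79 on Wt P21 replicates 1, 2 and 3 and 8.46, 8.30 and 8.82 on Fn adult replicates 1, 2 and 3. All Fn adult levels lay above all Wt P21 levels, and Wt P21 replicate 3 did not stand out. The mean went from 7.86 ± 0.12 (SD, n = 3) to 8.53 ± 0.26 (SD, n = 3), a difference of 0.66 (SE 0.16, 95% interval 0.30 to 1.03), or 1.58-fold higher, with an adjusted p of 0.0396. Without Wt P21 replicate 3 it was 0.63 (adjusted p = 0.0364). The call ended when any other array was left out, at adjusted p = 0.0573 and 0.0977 for Wt P21 replicates 1 and 2 and at 0.138, 0.0655 and 0.143 for Fn adult replicates 1, 2 and 3. It also ended after quantile normalization (0.53, adjusted p = 0.0825) and after median centring of the arrays (0.50, adjusted p = 0.0997), with the probe sets averaged (adjusted p = 0.059) and with the replicate number as a block (adjusted p = 0.0606).

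The rise of Hvcn1 was uneven over its 9 probe sets. Of these, 2 rose, 7 did not pass, 7 had higher and 2 had lower means, and in 5 the Fn adult values lay above all Wt P21 values, where 3.78% of all probe sets rose and 21.5% lay above. Probe set 4418242 had the largest difference, 1.43 (adjusted p = 0.0207), with 6.67, 7.07 and 7.07 on the Wt P21 arrays and 8.32, 7.95 and 8.82 on the Fn adult arrays. The other that rose was 5567956, by 0.88 (adjusted p = 0.049). The lowest difference was that of 4812265, -0.22 (adjusted p = 0.444), with 7.75, 7.50 and 7.79 against 7.33, 7.55 and 7.49. None of the 9 had a mean above that of the median probe set.

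Cells other than germ cells use Hvcn1, so their markers stand beside it. The 8 macrophage markers had a mean level of 8.65 to 8.86 on the Wt P21 arrays and 9.36 to 9.52 on the Fn adult arrays. Of these 8, 6 rose, against 8.07% of all genes, and their median difference was 0.85. Fcgr3 went against the others, with a difference of -0.87 that did not pass (adjusted p = 0.0536). It fell after quantile normalization (-0.93, adjusted p = 0.0446) and after median centring (-1.04, adjusted p = 0.0308). The 7 measured lymphocyte markers had a mean level of 6.81 to 6.99 on the Wt P21 arrays and 7.05 to 7.14 on the Fn adult arrays. The B cell markers Cd79a, Cd79b and Ms4a1 differed by -0.16, -0.18 and 0.02 (adjusted p = 0.635, 0.622 and 0.936), and the levels of Ms4a1, 5.07 to 5.37, lay under the lower quartile of every array. The part of these cells in the rise of Hvcn1 was not tested.

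The 4 CatSper pore genes did not share a direction, and none of them passed in limma with all 6 arrays, with 1 of them, Catsper2, at an unadjusted p under 0.05. The level of Catsper2 was 10.14, 9.38 and 11.08 on Wt P21 replicates 1, 2 and 3 and 9.03, 9.39 and 9.05 on Fn adult replicates 1, 2 and 3. The groups met at replicate 2, where the Wt P21 level was the lowest of its group and the Fn adult level the highest of its own. The difference was -1.04 (SE 0.36, 95% interval -1.88 to -0.21, adjusted p = 0.111), and -0.60 without Wt P21 replicate 3 (adjusted p = 0.0883). It passed after quantile normalization (-1.21, adjusted p = 0.0456), after median centring (-1.21, adjusted p = 0.0451) and without Wt P21 replicate 2 (-1.46, adjusted p = 0.0388). All 17 probe sets of Catsper2 had lower means in Fn adult testes and 10 had no overlap, against 40.6% and 7.67% of all probe sets, but 17 did not pass. They ran from -1.46, in probe set 4803877, to -0.37, in probe set 5236291.

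Catsper1 was low on 5 of the 6 arrays. Its level was 5.95, 6.32 and 8.04 on Wt P21 replicates 1, 2 and 3 and 6.03, 6.16 and 6.25 on the Fn adult arrays. All but Wt P21 replicate 3 were below the lower quartile of their array, where the background is not known, so no fold is given. The difference of -0.62 (95% interval -1.67 to 0.42, adjusted p = 0.423) rested on that array, and without it the value was 0.01 (adjusted p = 0.972). Of 18 probe sets, 17 had lower means and 1 did not, from -0.96 in probe set 5315050 to 0.18 in probe set 4683065.

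Catsper3 was under the lower quartile on all 6 arrays. Its level was 5.86, 5.80 and 7.16 on Wt P21 replicates 1, 2 and 3 and 6.55, 6.43 and 6.58 on the Fn adult arrays, which lay between the wild-type values. The difference was 0.24 (95% interval -0.50 to 0.99, adjusted p = 0.677), and without Wt P21 replicate 3 Catsper3 rose by 0.69 (adjusted p = 0.00843). Its 12 probe sets ran from -0.45 (4608063) to 0.55 (4913970), with 4 lower and 8 higher means. Catsper4 had 7.20, 7.00 and 8.02 on the Wt P21 arrays and 7.38, 7.63 and 7.31 on the Fn adult arrays, and 4 of the 6 levels were under the lower quartile of their array. Its difference of 0.03 (95% interval -0.54 to 0.60, adjusted p = 0.952) turned to -0.06 after quantile normalization and -0.14 after median centring, and was 0.34 without Wt P21 replicate 3 (adjusted p = 0.125). Its 13 probe sets spread from -0.39 (4901851) to 1.03 (4761130), with 9 lower and 4 higher means.

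**Figure D2:**
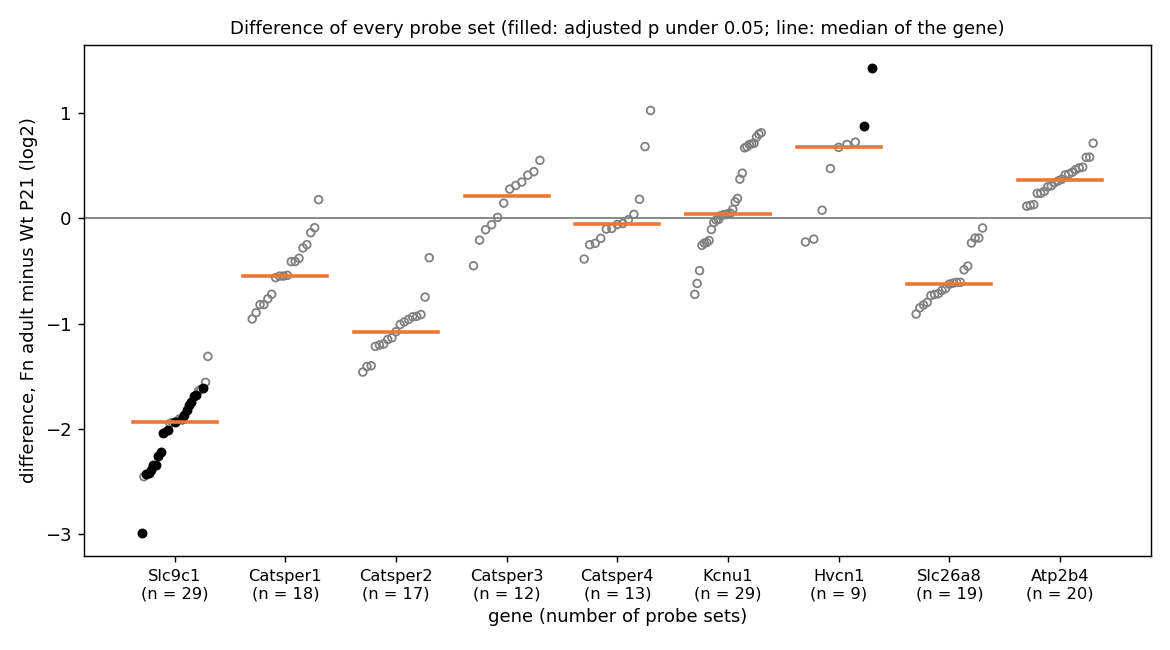
Difference of each probe set (log2, Fn adult minus Wt P21, vertical axis) for the 9 genes, sorted within a gene, with filled points for an adjusted p under 0.05 and an orange line at the median of the gene. All 29 Slc9c1 probe sets and all 17 Catsper2 and 19 Slc26a8 probe sets lie below 0, all 20 Atp2b4 probe sets lie above 0, and those of Kcnu1 and Catsper4 lie on both sides.

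Kcnu1, which encodes the pH-gated potassium channel SLO3, had the largest wild-type SD of the 9 genes (1.12, n = 3). Its level was 6.85, 7.13 and 8.91 on Wt P21 replicates 1, 2 and 3 and 7.86, 8.16 and 8.05 on Fn adult replicates 1, 2 and 3. Wt P21 replicates 1 and 2 lay under the lower quartile of their arrays and below every Fn adult array, while Wt P21 replicate 3 lay above every one. The difference was 0.39 (95% interval -0.66 to 1.44, adjusted p = 0.631), and without Wt P21 replicate 3 Kcnu1 rose by 1.03 (adjusted p = 0.00349). Its 29 probe sets ran from -0.72 (5487992) to 0.81 (5308995) with a median of 0.05, with 11 lower and 18 higher means. The 3 with a mean above that of the median probe set had a median difference of 0.77, and the 26 dimmer ones had 0.04.

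Slc26a8 encodes the testis anion transporter TAT1, which the sperm tail of the mouse needs for its structure and movement. Its level was 10.54, 10.61 and 11.71 on Wt P21 replicates 1, 2 and 3 and 9.97, 10.43 and 10.40 on Fn adult replicates 1, 2 and 3. The groups did not overlap, though Wt P21 replicate 1 and Fn adult replicate 2 lay close together. The difference was -0.69 (95% interval -1.37 to -0.0011) and did not pass (adjusted p = 0.187). It was -0.31 without Wt P21 replicate 3 (adjusted p = 0.199). All 19 probe sets had lower means, from -0.91 (4946660) to -0.09 (4844473), and 6 had no overlap, but 19 did not pass. Of all probe sets, 40.6% had lower means and 7.67% had no overlap in that direction.

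Atp2b4 encodes PMCA4, the main pump that moves calcium out of mouse sperm. Its level was 10.10, 9.95 and 10.63 on Wt P21 replicates 1, 2 and 3 and 10.83, 10.60 and 10.57 on Fn adult replicates 1, 2 and 3, so that Wt P21 replicate 3 lay within the Fn adult range and the others below it. The difference was 0.44 (95% interval 0.01 to 0.87, adjusted p = 0.179), and without Wt P21 replicate 3 Atp2b4 rose by 0.64 (adjusted p = 0.0158). All 20 probe sets had higher means in Fn adult testes, from 0.12 (5328213) to 0.71 (4426241), and in 5 the groups did not overlap, a share near the 21.5% of all probe sets that lay above, and 20 did not pass.

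**Figure D3:**
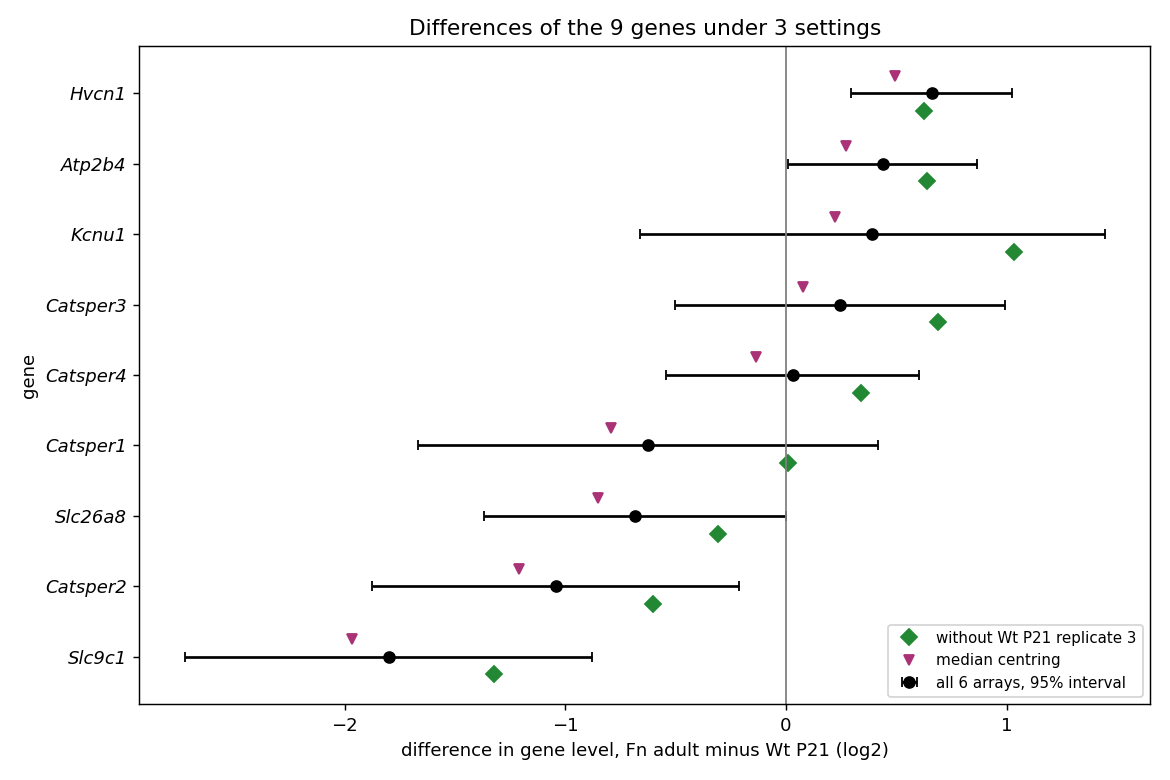
Difference in gene level (log2, Fn adult minus Wt P21, horizontal axis) of the 9 genes with all 6 arrays (black, with the 95% interval of limma), after median centring (purple) and without Wt P21 replicate 3 (green). The Slc9c1 and Hvcn1 intervals exclude 0, as do those of Catsper2, Slc26a8 and Atp2b4, which did not pass after adjustment, and the value without Wt P21 replicate 3 is higher than the value with it for every gene except Hvcn1.

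Exon arrays also show whether parts of a gene change unequally. The splicing index of a probe set is its log2 value after the gene level on that array has been subtracted. None of the 166 probe sets passed in limma, where 0.00771% of all probe sets did so, and 20 had an unadjusted p under 0.05, where 9.56% of all probe sets did so. The lowest adjusted p was 0.143, in probe set 5487992 of Kcnu1, whose splicing index differed by -1.11. That probe set had 4.42, 4.34 and 6.44 on the Wt P21 arrays and 4.20, 4.28 and 4.56 on the Fn adult arrays. The next was probe set 4581704 of Slc9c1, at -0.63 (adjusted p = 0.233), which fell by 2.43 in level (adjusted p = 0.0194). The count stayed at 0 under quantile normalization, with the replicate number as a block, with brighter probe sets only and without each array.

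The profiles over the 6 arrays were set side by side as the root mean square (RMS) of the log2 differences between genes after each was centred on its own mean. The arrays share their RNA and their group difference, so these values are descriptions. Catsper3 lay nearest to Catsper4 (0.23) and to Kcnu1 (0.26), all high on Wt P21 replicate 3 with Fn adult arrays in between. Catsper2 lay nearest to Slc26a8 (0.33) and Slc9c1 to Catsper2 (0.45). Slc9c1 and Hvcn1 were the furthest pair, at 1.38.

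Among all genes of similar level (within 1 log2 unit), Slc9c1 was most like the anion transporter Slco6c1 (RMS 0.199) and Cfap61, a gene of cilia and flagella (0.214). Cfap61 had 9.13, 9.07 and 10.34 on the Wt P21 arrays and 7.39, 7.88 and 7.50 on the Fn adult arrays, a difference of -1.93 (adjusted p = 0.0106). Hvcn1 was most like Cbs (0.0718), the enzyme that makes cystathionine, and the lipoxygenase Alox12 (0.0751). Alox12 had 7.73, 7.71 and 7.70 against 8.37, 8.26 and 8.63. The nearest to Catsper1 were Adam24 and Adam26b (0.126 and 0.141), to Catsper2 Efcab5 and Itprip (0.146 and 0.152), and to Catsper3 Galntl5 and Lyzl6 (0.0952 and 0.104). Catsper4 was nearest to Htatip2 and Htr5b (0.0583 and 0.0695), Kcnu1 to 4430402I18Rik and Best1 (0.09 and 0.112), Slc26a8 to Ttc16 and Insl6 (0.0534 and 0.0895) and Atp2b4 to Crebrf and Cog3 (0.0422 and 0.0481).

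CatSper works with a set of auxiliary subunits that hold the pore in rows along the tail. Of 12 such genes, 7 were measured, and 2 fell (Catsperz and Slco6c1) and 5 did not pass. Of all genes 0.914% fell. All 7 were lower in value on the mutant arrays, where 41.3% of all genes were. Their median was -0.60 on the log2 scale, against 0.07 over all genes. The pachytene markers lay the same way, with 9 of 10 lower and a median of -0.47. Catsperz, which keeps the rows of CatSper continuous in the mouse, had 11.88, 12.11 and 12.51 on the Wt P21 arrays and 10.70, 11.49 and 11.29 on the Fn adult arrays, with no overlap. It was 2.01-fold lower (-1.01, SE 0.23, adjusted p = 0.035). Slco6c1, a transporter found in the CatSper complex of the mouse, had 9.71, 9.13 and 10.85 against 8.07, 8.69 and 8.38, again with no overlap. It was 2.87-fold lower (-1.52, SE 0.39, adjusted p = 0.0461).

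Other CatSper partners lay in the same direction without passing. Catsperb had a difference of -1.09 with no overlap (adjusted p = 0.0569), and it fell by 0.71 without Wt P21 replicate 3 (adjusted p = 0.0162). It also fell after quantile normalization and median centring (adjusted p = 0.0214 and 0.0228). Catsperd, Catsperg2, the calcium sensor Efcab9 and C2cd6 had -0.60, -0.42, -0.30 and -0.40 (adjusted p = 0.201, 0.273, 0.555 and 0.348). Wt P21 replicate 3 was the highest wild-type array for all 7 genes and lay above the mean of the other wild-type arrays by a median of 0.90. Without it the median difference was -0.29 and 3 genes fell (2.41% of all genes), with -0.84 for Catsperz and -1.04 for Slco6c1 (adjusted p = 0.0341 and 0.0165). Efcab9 was no longer lower there, at 0.01 (adjusted p = 0.967). Leaving out Fn adult replicate 1, 2 or 3 ended the call of Catsperz (adjusted p = 0.13, 0.0555 or 0.0959) and that of Slco6c1 (adjusted p = 0.189, 0.0947 or 0.138). That of Catsperz also ended without Wt P21 replicate 2 (0.0906) and that of Slco6c1 without Wt P21 replicate 1 (0.0872).

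The 10 partners and cyclic AMP signalling genes of these channels were all measured, and 2 rose, against 8.07% of all genes, and 8 did not pass, with a median of -0.05. Adcy10, the soluble adenylyl cyclase that bicarbonate switches on, had 9.33, 9.22 and 10.53 on the Wt P21 arrays and 8.30, 8.79 and 8.51 on the Fn adult arrays. The groups did not overlap, and the difference of -1.16 did not pass (adjusted p = 0.0604). Adcy10 fell by 0.74 without Wt P21 replicate 3 (adjusted p = 0.0174). It also fell after quantile normalization and median centring (adjusted p = 0.0254 and 0.0261). Lrrc52, the partner subunit of SLO3, differed by -0.46 (adjusted p = 0.207). Prkar2a, a regulatory subunit of protein kinase A, was 1.50-fold higher (adjusted p = 0.0407), and Abhd2, the lipid hydrolase through which progesterone acts on CatSper in human sperm, was 1.89-fold higher (adjusted p = 0.0474). With Wt P21 replicate 3 left out, 5 of the 10 rose and 1 fell, against 16.1% and 2.41% of all genes. Prkar2a and Abhd2 had adjusted p values of 0.036 and 0.0362 there, and of 0.189 and 0.197 without Fn adult replicate 1. After median centring both lost the call (0.108 and 0.0569).

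Of 14 measured genes of other ion, anion and water transport in sperm, 2 rose, against 8.07% of all genes, and 12 did not pass, with a median of 0.09. Aqp8, a water channel, had 9.85, 9.42 and 9.67 on the Wt P21 arrays and 11.16, 10.89 and 11.32 on the Fn adult arrays. It was 2.77-fold higher (adjusted p = 0.00191) and passed in each of the 13 alternatives run. Itpr1, which releases calcium from internal stores, was 1.60-fold higher (adjusted p = 0.0272), with 9.72, 9.38 and 9.32 against 10.26, 10.12 and 10.06, and lost the call after quantile normalization (adjusted p = 0.074). The calcium channel gene Cacna1h had the lowest value, -0.70 (adjusted p = 0.164). With Wt P21 replicate 3 left out, 4 of the 14 rose, against 16.1% of all genes.

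Relatives of the 9 genes that are not particular to sperm were read for comparison. Of 28 listed, 17 were measured, and 3 rose, against 8.07% of all genes, and 14 did not pass, with a median of 0.07, the value of all genes. The exchangers Slc9a7 and Slc9a9, which act in the Golgi and endosomes, were higher by 0.55 and 0.75 on the log2 scale (adjusted p = 0.0492 and 0.0136). The Wt P21 levels of Slc9a7, 7.28, 6.90 and 7.29, lay under the lower quartile of their arrays, so no fold is given for it. It passed in 2 of the 12 alternatives in which it had a value. Slc9a9 was 1.68-fold higher. Kcnma1, the large-conductance potassium channel related to Kcnu1, was 1.62-fold higher (adjusted p = 0.0328), with 9.24, 8.92 and 8.67 on the Wt P21 arrays and 9.66, 9.66 and 9.60 on the Fn adult arrays. Without Wt P21 replicate 3 their adjusted p values were 0.0231, 0.00482 and 0.0254, and 4 of the 17 rose, against 16.1% of all genes. After quantile normalization those of Slc9a7 and Kcnma1 were 0.06 and 0.103, and with brighter probe sets only that of Slc9a9 was 0.54. The sodium pump partners Atp1b1, Atp1b2 and Atp1b3 differed by 0.18, 0.01 and 0.24 (adjusted p = 0.483, 0.98 and 0.388).

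**Figure D4:**
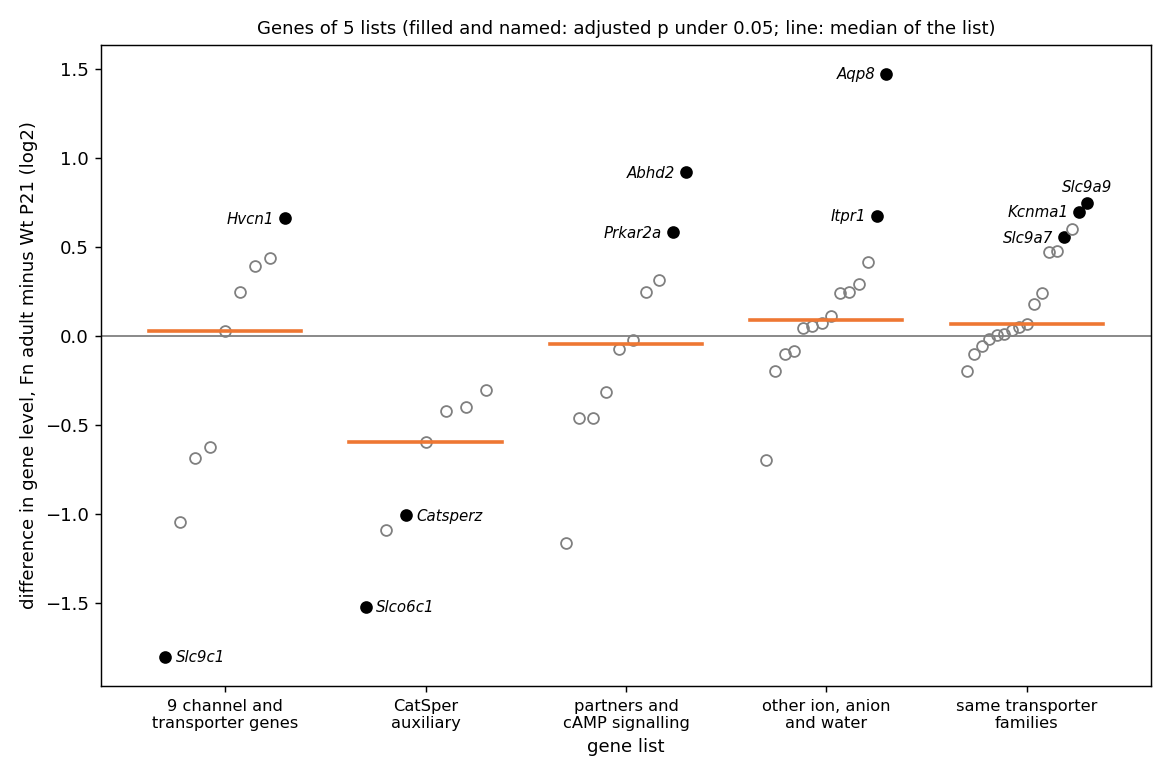
Difference in gene level (log2, Fn adult minus Wt P21, vertical axis) of each measured gene in 5 lists (horizontal axis), sorted within a list, with filled and named points for an adjusted p under 0.05 and an orange line at the median of the list. All 7 CatSper auxiliary genes lie below 0 with a median of -0.60, while the medians of the other lists shown lie between -0.05 and 0.09. The pachytene markers, which are not shown, had a median of -0.47.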

How the data were processed

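The deposited values are log2 signals of 229581 probe sets of Affymetrix mouse exon arrays, with a column for each array. The authors analysed their exon arrays with the EASANA system of GenoSplice Technology, and the processing notes name genome build mm8. The background correction and normalization behind the deposited log2 values are not given in the sources used here. Values were used as deposited. For arrays, their number limits the precision.

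Probe sets were named from the annotation of the array: 209279 carried 1 symbol, 4446 several and 15856 none. Symbols were updated through RefSeq genes of GRCm38.p6 (of 16380, 14190 were current, 2145 were updated and 45 were not matched). Gene levels, probe sets and the splicing index were tested with lmFit and eBayes of limma 3.58.1 (R 4.3.3, packages data.table, version 1.17.8, and statmod 1.5.0), two-sided, with Benjamini-Hochberg adjustment over 15207 genes, 209279 probe sets and 207513 splicing indices. The threshold was 0.05, and genes needed at least 3 probe sets. The code was tested on simulated data.

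The genes and lists were chosen with earlier results of these data known. Named in the text are the 10 genes, the probe sets with the lowest and highest difference in each, the genes of a list past the threshold (the largest difference where none passed) and the 2 nearest profiles of each gene. Hvcn1 probe set 5567956, Slc9c1 probe set 4581704, the B cell markers and other list genes that did not pass were added after their values were seen.

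The alternatives were quantile normalization, median centring, a fit without each array, a replicate block, the trend and robust options of eBayes, the mean of the probe sets, brighter probe sets only and any number of probe sets. Those of the lists were added after seeing the data. Dazap1 and Atp1a4 are not analysed here.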

Additional observations from a re-analysis of the deposited data

How the results depend on the processing

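Under quantile normalization, 2 of the 9 genes fell (Slc9c1 and Catsper2) and 0 rose, and under median centring likewise 2 fell and 0 rose. Over all genes falls were also more frequent there, at 2.97% under quantile normalization and 4.14% under median centring, against 0.914% as deposited. Rises went from 1227 of the 15207 genes to 826 and 702. Hvcn1 lost its rise in both, with the probe sets averaged in place of their median (adjusted p = 0.059) and with the replicate block (adjusted p = 0.0606), so that 0 genes rose in each. With brighter probe sets only 0 rose as well, since Hvcn1 has fewer than 3 such probe sets and no value there. When 1 array was left out, 0 to 2 genes fell and 0 to 4 rose, and the number of their probe sets called went from 21 to between 0 and 54, the last without Wt P21 replicate 3. The value of Catsper4 reversed to -0.065 under quantile normalization and -0.14 under median centring, and ran from -0.17 to 0.34 when 1 array was left out. That of Catsper1 ran from -1.03 to 0.0082, the last without Wt P21 replicate 3. Slc9c1 kept its direction in all 13 alternatives (-2.12 to -1.32) and passed in 9, and Hvcn1 kept its own in 12 (0.50 to 0.77) and passed in 3.

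Over all genes, 1227 rose and 139 fell. Quantile normalization gave 826 rises and 452 falls, median centring 702 rises and 629 falls, and the mean of the probe sets 1999 rises and 229 falls. Leaving out 1 array gave 306 to 2455 rises and 19 to 366 falls. Rises made up 89.8% of the called genes as deposited, 64.6% after quantile normalization and 52.7% after median centring. In the same order, the median difference of all genes was 0.07, -0.05 and -0.10. The cause of the changes in these counts was not tested.

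The labels give the Wt P21 and Fn adult samples of the same number a shared code of unstated meaning. The numbers were not taken as pairs, since deviations of same-numbered samples correlated at 0.24, -0.11 and -0.02 over genes. Within numbers 1, 2 and 3 the difference was -2.04, -0.76 and -2.61 for Slc9c1 and 0.45, 0.51 and 1.03 for Hvcn1. The fit with the replicate block called 890 risen and 126 fallen genes, with Slc9c1 as the 1 fall among the 9 genes and 0 rises. Not every array correlated best with its own number.

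The 95% interval of Kcnu1, with the largest SD among the Wt P21 arrays, ran from -0.66 to 1.44. At 3 arrays a group, neither no change nor a rise of 1 log2 unit was excluded for this gene. The background of levels below the lower quartile of an array (among them Catsper3, and Catsper1, Catsper4, Kcnu1 and Slc9a7 on some arrays) is not known.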
